A study of Mus musculus with 6 samples.

Results

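The genes described here are 10 imprinted genes of the mouse, Plagl1, Zdbf2, Dio3, Dio3os, Igf2r, Grb10, Peg3, Mest, Cdkn1c and Ndn, named because some of them were nearly silent in one group of libraries and expressed in the other. They were chosen by their values in the same contrast that is described here, so the differences between the groups are given for them as a description, with no test. Of the 10 genes, 8 were found by symbol among the 14831 genes of the count table. Grb10 and Mest matched no row by symbol or by Ensembl identifier and were not analysed here, apart from the genes that lie near them. The description on/off held for 4 of the 8 genes, Plagl1, Zdbf2, Dio3 and Dio3os, whose group means differed by more than 10-fold. It did not hold for Igf2r, Peg3, Cdkn1c and Ndn, whose group means differed by less than 10-fold. Cdkn1c had few reads in both groups, between 3 and 13 counts in each library.

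The libraries come from immortalized mouse pancreatic fibroblasts, the connective tissue cells of the pancreas, of a mixed strain, grown to confluence in 6 separate wells. The genotype labels are WT for 3 libraries and Gli2-/-;Gli3-/-, here labelled KO, for the other 3, and Gli2 and Gli3 encode transcription factors of the Hedgehog pathway. Per the methods of the study, lines from adult mice with floxed Gli2 and Gli3 received, once immortalized, an adenovirus for GFP with a lentivirus for dsRed as control, or adenoviruses for GFP and Cre, and infected cells were sorted and then screened for recombination by qPCR and at the protein level. Which line or clone each well came from is not given in the sources used here. Gli2 was at 27.1 CPM (the counts of a gene relative to the total of its library, after TMM scaling by edgeR) in the WT-labelled libraries and 56.2 CPM in the KO-labelled ones, and Gli3 at 12.5 and 40.8 CPM, so the counts of both targeted genes go against the labels. Which exons Cre removes, and how many of these reads lie outside them, is not given in the sources used here. By the deposited counts, Ccl5 was lower and Il6 and Il11 were higher in the KO-labelled libraries. Each is the reverse of the direction the study reports for Gli2/Gli3 KO fibroblasts, both from RNA sequencing and from qPCR. Whether the labels of the groups were exchanged was not tested. Each direction given for a gene is that of the labels alone.

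Totals were between 31728420 and 33905521 counts in the WT-labelled libraries and between 32781730 and 41035931 in the KO-labelled ones. Wells of a group differed by more than sampling noise (chi-square divided by its degrees of freedom, 2.50 to 7.74), and all 6 were kept. Of 12 fibroblast markers, 10 were in the table, summing to 44836 to 47249 CPM in the WT-labelled libraries and 36791 to 38541 CPM in the KO-labelled ones, while Pdpn and Fap were not analysed here. Single markers moved unlike the sum. Lum averaged 11.7 CPM in the WT-labelled and 0.240 CPM in the KO-labelled libraries. Dcn (2643 and 905 CPM), Col3a1 (8970 and 4678), Pdgfra (301 and 162) and Pdgfrb (570 and 359) were also lower, and by less Col1a2 and Vim. S100a4 (2.31 and 7.36) and Thy1 (0.0525 and 0.390) were higher. Col1a1, the largest part of each sum, overlapped between the groups (15982 and 16113). All 5 mesothelial markers (Msln, Wt1, Upk3b, Upk1b and Lrrn4) were higher in the KO-labelled libraries, their sum lying between 22.6 and 25.6 CPM in one group and between 291 and 293 CPM in the other. Of 13 epithelial markers 5 were in the table, with sums of 20.2 to 22.7 and 44.0 to 45.5 CPM, and the defining marker Epcam had no row. Markers of mural cells summed to 10.1 to 11.2 and 25.4 to 28.7 CPM and those of Schwann cells and neurons to 8.27 to 8.61 and 12.6 to 14.8 CPM, while sums for macrophages (39.7 to 46.0 and 38.8 to 40.4 CPM) and endothelial cells (0.866 to 1.60 and 0.763 to 0.939 CPM) overlapped between the groups, and none of 6 endocrine markers had a row. Xist, transcribed from the inactive X chromosome of female cells, averaged 1227 CPM in the WT-labelled libraries and 704 CPM in the KO-labelled ones. The shifts in markers and in Xist went with the labels, as every difference below does, and their part in the results was not tested. In bulk RNA, fewer cells of a type and less RNA per cell cannot be told apart.

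Imprinted genes are transcribed mainly from the copy inherited from the mother or mainly from the copy inherited from the father, according to DNA methylation set in the germ cells and kept through cell division. Many act on growth of the embryo, on placental supply and on metabolism, and several are silenced in most adult tissues. They tend to lie in clusters in which a methylated control region and a long noncoding RNA set the state of the surrounding genes.

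The promoters of the 4 genes with the on/off difference are shown because the CpG dinucleotides they hold are where DNA methylation is placed. Sequences are from RefSeq (GRCm38.p6) and run from 250 bases before to 50 bases after a start site, 5′ to 3′ on the strand of the gene, with each CpG in capitals. Zdbf2 has 2 start sites, 1 of them upstream of the gene body in the GENCODE annotation. The start site of Plagl1, at 13090832, lies inside its gene body, which begins at 13060504 in that annotation, and no window covers that beginning. The windows are at chr10:13090582-13090881 (+) for Plagl1, chr1:63200108-63200407 (+) and chr1:63273019-63273318 (+) for Zdbf2, chr12:110278980-110279279 (+) for Dio3 and chr12:110278019-110278318 (-) for Dio3os.
Plagl1: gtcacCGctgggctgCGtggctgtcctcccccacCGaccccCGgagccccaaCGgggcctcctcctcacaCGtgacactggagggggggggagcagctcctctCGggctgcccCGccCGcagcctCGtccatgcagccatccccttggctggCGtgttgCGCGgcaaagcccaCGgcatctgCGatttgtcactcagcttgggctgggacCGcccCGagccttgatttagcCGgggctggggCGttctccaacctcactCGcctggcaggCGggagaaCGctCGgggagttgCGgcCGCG
Zdbf2, upstream start: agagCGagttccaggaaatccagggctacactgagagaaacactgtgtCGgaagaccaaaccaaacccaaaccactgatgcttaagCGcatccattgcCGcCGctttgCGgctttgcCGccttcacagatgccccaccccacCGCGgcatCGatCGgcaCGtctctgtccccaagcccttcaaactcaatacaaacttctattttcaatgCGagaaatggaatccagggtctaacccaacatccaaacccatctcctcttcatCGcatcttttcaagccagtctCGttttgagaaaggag
Zdbf2, start of the gene body: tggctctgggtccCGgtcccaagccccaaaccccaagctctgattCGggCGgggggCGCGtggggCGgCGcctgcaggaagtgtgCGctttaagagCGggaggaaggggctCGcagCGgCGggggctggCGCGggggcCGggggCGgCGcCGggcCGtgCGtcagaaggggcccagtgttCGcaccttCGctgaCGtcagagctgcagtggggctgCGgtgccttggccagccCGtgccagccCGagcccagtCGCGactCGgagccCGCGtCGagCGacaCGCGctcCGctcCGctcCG
Dio3: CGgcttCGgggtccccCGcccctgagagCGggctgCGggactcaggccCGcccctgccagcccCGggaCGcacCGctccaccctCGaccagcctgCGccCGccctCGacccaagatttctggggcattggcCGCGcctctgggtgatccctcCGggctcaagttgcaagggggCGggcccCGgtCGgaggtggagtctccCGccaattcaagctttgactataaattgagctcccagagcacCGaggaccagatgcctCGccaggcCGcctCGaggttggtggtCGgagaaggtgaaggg
Dio3os: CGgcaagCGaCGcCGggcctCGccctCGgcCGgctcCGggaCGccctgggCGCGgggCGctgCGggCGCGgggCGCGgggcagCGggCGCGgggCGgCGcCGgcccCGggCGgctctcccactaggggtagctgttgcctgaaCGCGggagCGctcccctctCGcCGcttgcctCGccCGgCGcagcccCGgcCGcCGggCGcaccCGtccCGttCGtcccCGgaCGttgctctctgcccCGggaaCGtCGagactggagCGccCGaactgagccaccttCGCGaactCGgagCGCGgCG

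Across 32851 promoter windows of this length, the median held 7 CpG. Dio3os held 53 CpG, and 99.55% of all windows held fewer. The window at the start of the Zdbf2 gene body held 38 and its upstream window 15. Plagl1 held 26 and Dio3 held 25, and 83.13% and 81.57% of all windows held fewer. Among the genes without the on/off difference, the windows held 34 CpG for Igf2r, 13 for Peg3 and 11 for Ndn. For the genes without a row, Grb10 held 45 and 9 in its 2 windows and Mest between 8 and 17 in its 3, while Cdkn1c matched no window. Thus the genes that were nearly silent in the KO-labelled libraries (Dio3 and Dio3os) and those nearly silent in the WT-labelled libraries (Plagl1 and Zdbf2) both had CpG-rich promoters, as had Igf2r, which was expressed in both groups.

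Windows were searched on both strands for 3 motifs. TGCCGC, bound by ZFP57, a zinc finger protein that keeps imprints in the early embryo, occurred in 11.61% of all windows. It was present 3 times in the upstream window of Zdbf2 (first bases at -155, -136 and -107 from the start site), once in the window of Plagl1 (-90), in 2 windows of Mest and in 1 of Grb10. The palindrome GGGGCCCC, bound by PLAGL1 itself, occurred in 1.078% of windows and in that of Peg3 (-201). GACCACCCA, the GLI motif, occurred in 0.2527% of windows and in none of those matched to the 9 genes. Such matches are letters in a window and say nothing about binding in these cells.

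Plagl1, a zinc finger transcription factor that slows the cell cycle and is expressed from the paternal copy, reached the highest level per length of the genes that were nearly silent in one group. It lies on chromosome 10 from 13060504 to 13131694 on the plus strand (GRCm38, as all positions of genes, from GENCODE M21). The WT-labelled libraries had 26, 41 and 58 counts and the KO-labelled ones had 11314, 13942 and 12052. All 3 KO-labelled libraries were far above all 3 labelled WT. On the CPM scale the group means were 1.29 ± 0.497 (SD, n = 3) and 339.7 ± 23.2, a fitted log2 difference of 8.03 (standard error 0.11), or 262-fold. By size of the fitted difference it was 15th of the 14289 genes tested.

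Zdbf2, a zinc finger gene of the DBF type whose paternal transcript supports growth of the young animal, went the same way at a much lower level. The gene spans chromosome 1 from 63273265 to 63314576 on the plus strand. Its counts were 0, 0 and 1 in the WT-labelled libraries and 78, 84 and 86 in the KO-labelled ones. Only 1 read was seen in the WT group, in replicate 3, while the 3 KO-labelled libraries lay close together. The ratio of KO to WT was 218, with an exact 95% interval from 38.8 to 8643 that, as for each ratio of low counts below, covers counting error only. In CPM the means were 0.0104 ± 0.0181 and 2.27 ± 0.301 (n = 3).

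Dio3 encodes the type 3 deiodinase, which inactivates thyroid hormone, is strong in fetal tissue and is expressed mainly from the paternal copy. The gene spans chromosome 12 from 110279068 to 110281097 on the plus strand, in a single exon. Its counts were 250, 273 and 252 in the WT-labelled libraries and 5, 5 and 0 in the KO-labelled ones. The 3 WT-labelled libraries had a coefficient of variation of 1.64%, and 1 library labelled KO had no read. Means were 8.01 ± 0.131 and 0.0871 ± 0.0761 CPM (n = 3), a ratio of WT to KO of 88.2 (exact 95% interval 47.7 to 185), and the fitted log2 difference was -6.41 (standard error 0.25). That value was -5.91 without KO replicate 3, the library at 0.

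Dio3os, a long noncoding RNA that starts upstream of Dio3 and runs the other way, was lower as well. It covers chromosome 12 from 110275385 to 110278172 on the minus strand, and the RefSeq start sites of the pair are 1162 bases apart. Counts were 214, 231 and 183 in the WT-labelled libraries and 1, 2 and 2 in the KO-labelled ones. No library labelled KO had more than 2 reads of this gene. The ratio of WT to KO was 143 (exact 95% interval 60.9 to 442), from means of 6.49 ± 0.653 and 0.0456 ± 0.0163 CPM (n = 3). Exons of the pair do not overlap in the annotation, so reads of one could not be counted on the other through shared bases. The microRNA gene Mir1247 lies within Dio3os, on the same strand, over 82 bases.

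Igf2r encodes the receptor that carries IGF2 and enzymes tagged with mannose 6-phosphate to the lysosome and is expressed from the maternal copy in most mouse tissues. The gene spans chromosome 17 from 12682406 to 12769664 on the minus strand. Counts were 23478, 26812 and 26950 in the WT-labelled libraries and 11483, 13688 and 12390 in the KO-labelled ones, or 749, 801 and 844 CPM against 324, 328 and 375 CPM. Here the groups did not overlap, but no library was near silence, and the mean of the KO-labelled libraries was lower by a fitted log2 difference of -1.22 (standard error 0.06), a WT over KO fold of 2.33.

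Peg3, a paternally expressed zinc finger gene known for its part in fetal growth and maternal behaviour, was higher in the KO-labelled libraries. It lies on chromosome 7 from 6703892 to 6730431 on the minus strand. The WT-labelled libraries had 7501, 8129 and 8091 counts (239, 243 and 253 CPM) and the KO-labelled ones had 14113, 16851 and 15354 (399, 404 and 465 CPM). The 3 WT-labelled libraries lay within a narrow band below all 3 labelled KO. The fitted log2 difference was 0.79 (standard error 0.05), or 1.72-fold.

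Ndn encodes necdin, a growth-restraining protein of the MAGE family that is expressed from the paternal copy, chiefly in neurons. It lies on chromosome 7 from 62346569 to 62350262 on the plus strand. Its counts were 636, 741 and 633 in the WT-labelled libraries and 851, 1008 and 741 in the KO-labelled ones. The lowest count of one group equals the highest of the other, and only after scaling did the groups separate, at 20.7 ± 1.21 and 23.6 ± 0.964 CPM (n = 3). The fitted log2 difference was 0.18 (standard error 0.06), under the median absolute difference of 0.22 over all genes tested, and 7981st in size.

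Cdkn1c encodes p57, a maternally expressed inhibitor of cyclin-dependent kinases. It lies on chromosome 7 from 143458339 to 143461050 on the minus strand and had 3, 3 and 4 counts in the WT-labelled libraries and 12, 13 and 5 in the KO-labelled ones. It was the 1 gene of the 8 that did not pass the filter on low counts. The ratio of KO to WT was 2.64 (exact 95% interval 1.25 to 6.05), and KO replicate 3 was close to the WT libraries. Of its exon bases, 625 of 2039 (30.7%) overlap the antisense gene Gm44732, and whether reads were counted by strand is not given in the sources used here.

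Grouped by the copy usually expressed, the paternal genes Plagl1, Zdbf2, Peg3 and Ndn had higher mean CPM in the KO-labelled libraries and the paternal gene Dio3 had lower, while the maternal gene Igf2r was lower and the maternal gene Cdkn1c higher. In all, 5 of the 8 genes had higher and 3 had lower mean CPM in the KO-labelled libraries. All 8 had groups that did not overlap in CPM, where 64.2% of the 14289 genes tested did so (32.9% higher and 31.3% lower). Calls required at least a 1.5-fold difference and a Benjamini-Hochberg adjusted p below 0.05 in the quasi-likelihood F test of edgeR, and 6 of the 7 genes that passed the filter met these limits, 3 higher and 3 lower. Over all genes tested 17.7% were called, 11.6% higher and 6.1% lower, and 58.7% had an adjusted p under 0.05 whatever the fold. The 4 genes past 10-fold compare with 1.78% of all genes at that size, and 10.3% were past 2-fold. Since these values chose the genes, nothing is read from these counts. With 3 libraries against 3, the smallest two-sided p of an exact permutation test on 1 gene is 0.1, and all p-values measure the spread between wells alone.

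**Figure D1:**
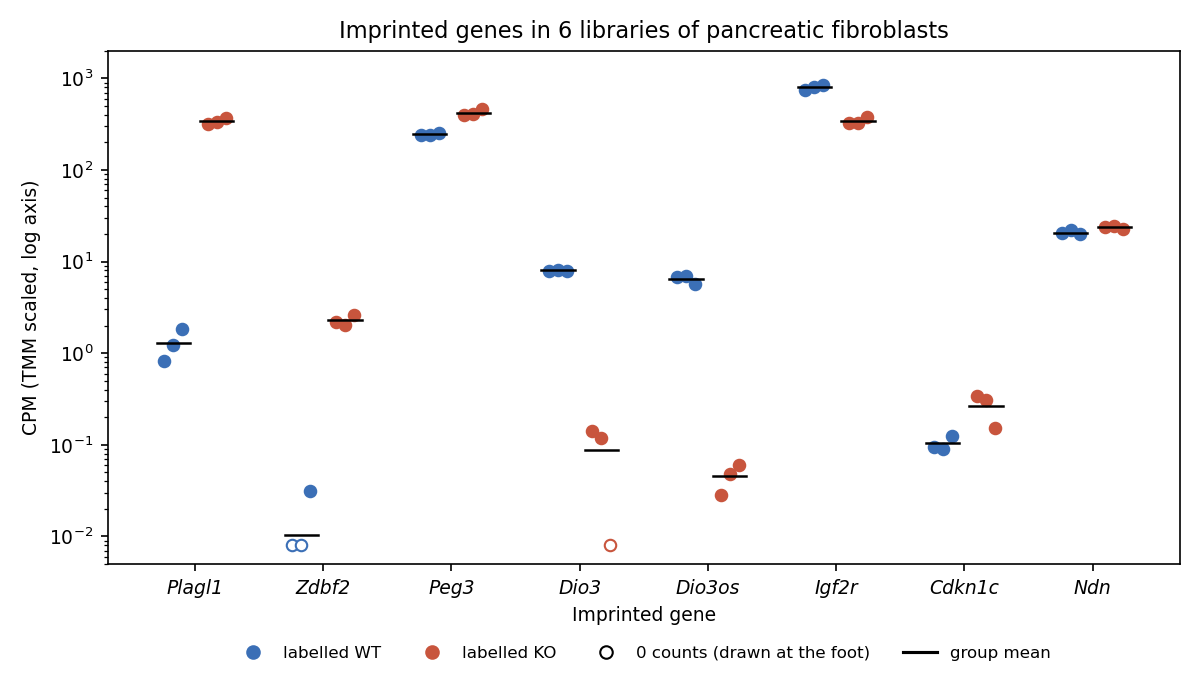
Level of the 8 imprinted genes in each library, in TMM-scaled CPM on a log axis, blue for the 3 WT-labelled libraries and red for the 3 labelled KO, with a bar at the group mean and open points for libraries with 0 counts. Plagl1 has means of 1.29 and 339.7 CPM, Zdbf2 of 0.0104 and 2.27, Dio3 of 8.01 and 0.0871 and Dio3os of 6.49 and 0.0456, and the means of the other genes lie much closer together.

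Compared per length (CPM per kb of exon), the order of the genes differed between the groups. In the WT-labelled libraries the order of means was Igf2r at 85.7, Peg3 at 18.4, Ndn at 5.62, Dio3 at 3.94, Dio3os at 3.85, Plagl1 at 0.165, Cdkn1c at 0.0508 and Zdbf2 at 0.000825 CPM per kb. The neighbours Dio3 and Dio3os overlapped in range (3.89 to 4.02 and 3.41 to 4.10) and changed places when the longest transcript was used as the length. The median of all genes tested was 5.05 CPM per kb, so Ndn stood close to the typical gene and the pair at the Dio3 locus somewhat below it.

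In the KO-labelled libraries the order was Plagl1 at 43.4, Igf2r at 36.8, Peg3 at 31.7, Ndn at 6.38, Zdbf2 at 0.180, Cdkn1c at 0.131, Dio3 at 0.0429 and Dio3os at 0.0271 CPM per kb, with a median of 5.09 over all genes. Plagl1 thus moved from the sixth place to the first, and its range of 40.9 to 46.7 lay above that of Igf2r, 34.8 to 40.3. Igf2r and Peg3 were near each other, with Peg3 between 29.9 and 34.9, and changed places with the longest transcript as the length. Zdbf2, although far above its level in the WT-labelled libraries, stayed well under the typical gene. Zdbf2 and Cdkn1c overlapped in range, at 0.159 to 0.206 and 0.0743 to 0.166, and so did Dio3 and Dio3os.

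**Figure D2:**
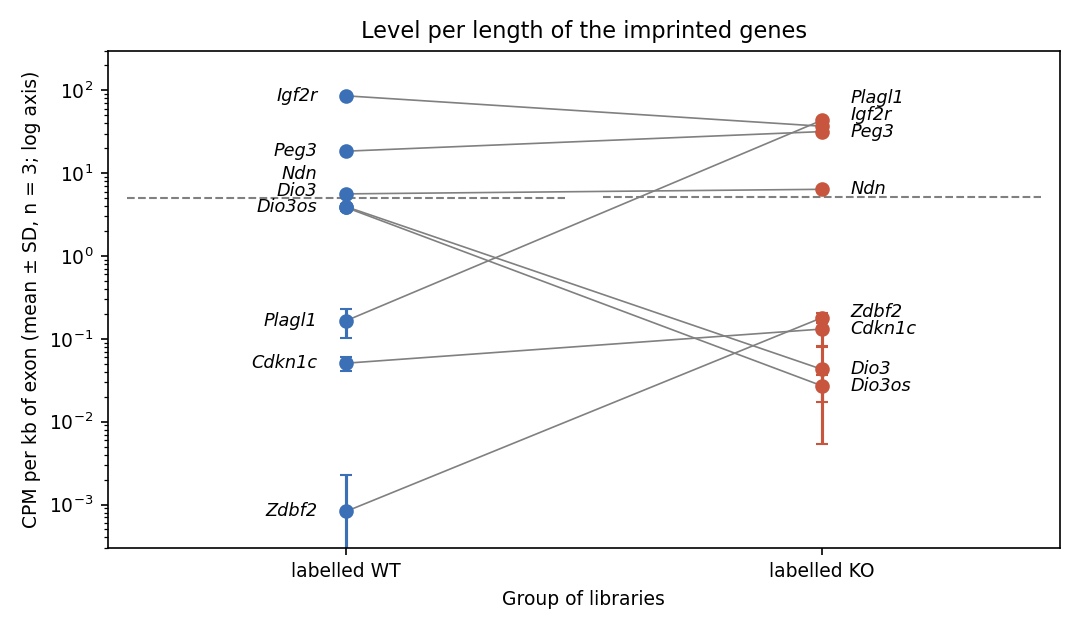
Mean CPM per kb of exon (± SD, n = 3, log axis) of the 8 genes in each group, with lines joining a gene's 2 means and a dashed line at the median of all genes tested (5.05 and 5.09). Plagl1 is at 0.165 in one group and first at 43.4 in the other, the Dio3 pair is lowest in the KO group, and the lower error bar of Zdbf2 in the WT group is cut at the axis because its SD is larger than its mean.

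The spread between wells, which the choice of the genes did not use, also varied among them. Plagl1 had a coefficient of variation of 38.5% in the WT-labelled libraries, and 97.5% of the 1685 genes within 2-fold of its level had a lower one. In the KO-labelled libraries it was 6.84%, above 92.3% of genes of like level. Igf2r stood in the same range with 5.96% and 8.27%, above 94.2% and 95.2% of such genes. Peg3 did so in the KO-labelled libraries, at 8.72% and above 96.4%. Dio3 differed between the groups, its 1.64% in the WT-labelled libraries lying above 4.70% of genes of like level and its 87.5% in the KO-labelled ones, at 5, 5 and 0 counts, above 86.0% of 57 such genes.

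Part of this spread went with the library. Replicate 3 of each group was the highest for Plagl1, Igf2r and Peg3. On the log2 scale they lay 0.11, 0.13 and 0.14 above their group mean in KO replicate 3, and 0.57, 0.08 and 0.05 in WT replicate 3. Plagl1, with few reads in the WT group, was at -0.56 in WT replicate 1, a spread far wider than that of the other genes. Genes with over 8 kb of exon and at least 10 CPM in every library (1901 genes) had a median deviation of 0.03 in WT replicate 3 and 0.04 in KO replicate 3, and those with under 2 kb (807 genes) of -0.03 and -0.04. Igf2r and Peg3 have 9.308 and 13.324 kb of exon and Plagl1 7.819 kb. Ndn, with 3.694 kb, was the reverse, at -0.06 and -0.07 in the same libraries. The part of exon length in these deviations was not tested.

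**Figure D3:**
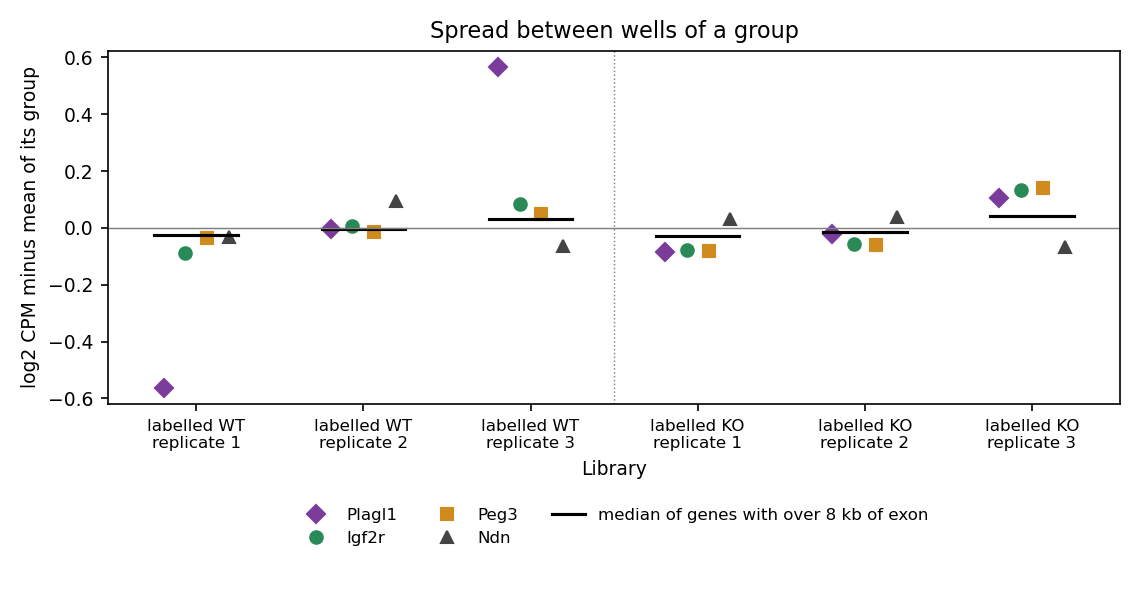
log2 CPM of 4 imprinted genes in each library minus the mean of its group, with a bar for the median of the 1901 genes with over 8 kb of exon. Plagl1, Igf2r and Peg3 lie highest in replicate 3 of both groups, where the bar is at 0.03 and 0.04, and Ndn lies below its mean there.

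Other imprinted genes were counted from a list of 68, of which 43 were in the table and 41 were tested. Of these, the KO-labelled libraries had 8 called higher and 4 called lower, or 29.3%, against 17.7% over all genes, and their median log2 difference was -0.09 against 0.00. An adjusted p under 0.05 from the same test, whatever the fold, was met by 29 of the 41. In clusters that hold one of the 10 genes 8 of 20 were called, and in the other clusters 4 of 21. The 10 genes were chosen on this same contrast, so nothing is read from that difference between clusters. By the copy usually expressed, 7 of 19 paternal and 5 of 20 maternal genes were called. The list does not separate genes by the tissue in which they are imprinted. Which copy was transcribed in these cells was not measured.

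The largest difference was at the H19-Igf2 cluster. H19, a maternally expressed noncoding RNA, had 10, 10 and 12 counts in the WT-labelled libraries and 942, 1123 and 893 in the KO-labelled ones. All 3 KO-labelled libraries stood far above the others, a log2 difference of 6.33 (standard error 0.10, adjusted p = 1.06e-13). Igf2, the fetal growth factor expressed from the paternal copy of the same cluster, was at 86, 86 and 71 counts and 22, 23 and 11 counts. It was thus lower in each library labelled KO, with a log2 difference of -2.30 (standard error 0.21, adjusted p = 9.75e-07). Igf2r and its ligand gene were therefore both lower in the KO-labelled libraries.

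In the Dlk1-Dio3 cluster, the fetal Notch-family ligand gene Dlk1 was higher while Dio3 and Dio3os were lower. It had 3, 4 and 9 counts in the WT-labelled libraries and 27, 23 and 24 in the KO-labelled ones (log2 difference 2.00, standard error 0.37, adjusted p = 4.84e-04), a difference of 2.60 without WT replicate 3. Rian had a row but did not pass the filter, and Meg3, Rtl1 and Mirg of the same cluster were not analysed here. In the Plagl1 cluster, Phactr2, a regulator of phosphatase and actin, was higher with Plagl1, by 1.47 (standard error 0.05, adjusted p = 2.10e-10). In the Peg3 cluster, Usp29, a ubiquitin protease gene that starts 147 bases from Peg3 on the opposite strand, had 59, 51 and 31 counts in the WT-labelled libraries and 104, 103 and 93 in the KO-labelled ones. Its log2 difference of 0.90 (standard error 0.19) was close to that of Peg3.

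In the Igf2r cluster, Airn, the paternal noncoding RNA that starts inside Igf2r on the opposite strand and silences that copy of Igf2r, had 126, 182 and 178 counts in the WT-labelled libraries and 58, 53 and 58 in the KO-labelled ones. Airn and Igf2r were thus both lower, Airn by -1.70 (standard error 0.16, adjusted p = 1.75e-06). Of its annotated exon bases 3.17% lie within the Igf2r body, and no Airn exon base was shared with an Igf2r exon. The cation transporter gene Slc22a2 of the same cluster was lower by -1.23 (standard error 0.26, adjusted p = 0.00135).

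Around Ndn, the Snrpn-Ndn cluster held 2 called genes of 6. Snrpn, a splicing protein gene, rose from 9.37 to 16.7 CPM (log2 difference 0.83) and the noncoding host of small nucleolar RNAs Snhg14 from 4.76 to 9.47 CPM (0.99). Mkrn3 (-0.09), Peg12 (-0.12), Ube3a (0.19) and Atp10a (-0.04) were not called, and Ndn was at 0.18. In the cluster of Cdkn1c 0 of 6 genes were called by edgeR, DESeq2 or limma, with log2 differences from -0.45 (Kcnq1ot1) to 0.48 (Slc22a18). By edgeR all 6 had an unadjusted p under 0.05, and 3 had an adjusted p under 0.05 with a difference under the fold limit. Around Mest, Copg2 was at -0.33, and beside Zdbf2, Adam23 was at -0.04, neither called. In the Grb10 cluster, Ddc, the decarboxylase of dopamine and serotonin synthesis, had 2, 3 and 4 counts and 91, 74 and 87 counts, a ratio of KO to WT of 24.6 (exact 95% interval 12.8 to 54.4). Outside these clusters, Dcn (decorin, also a fibroblast marker) was lower by -1.55 and Herc3 higher by 1.15.

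**Figure D4:**
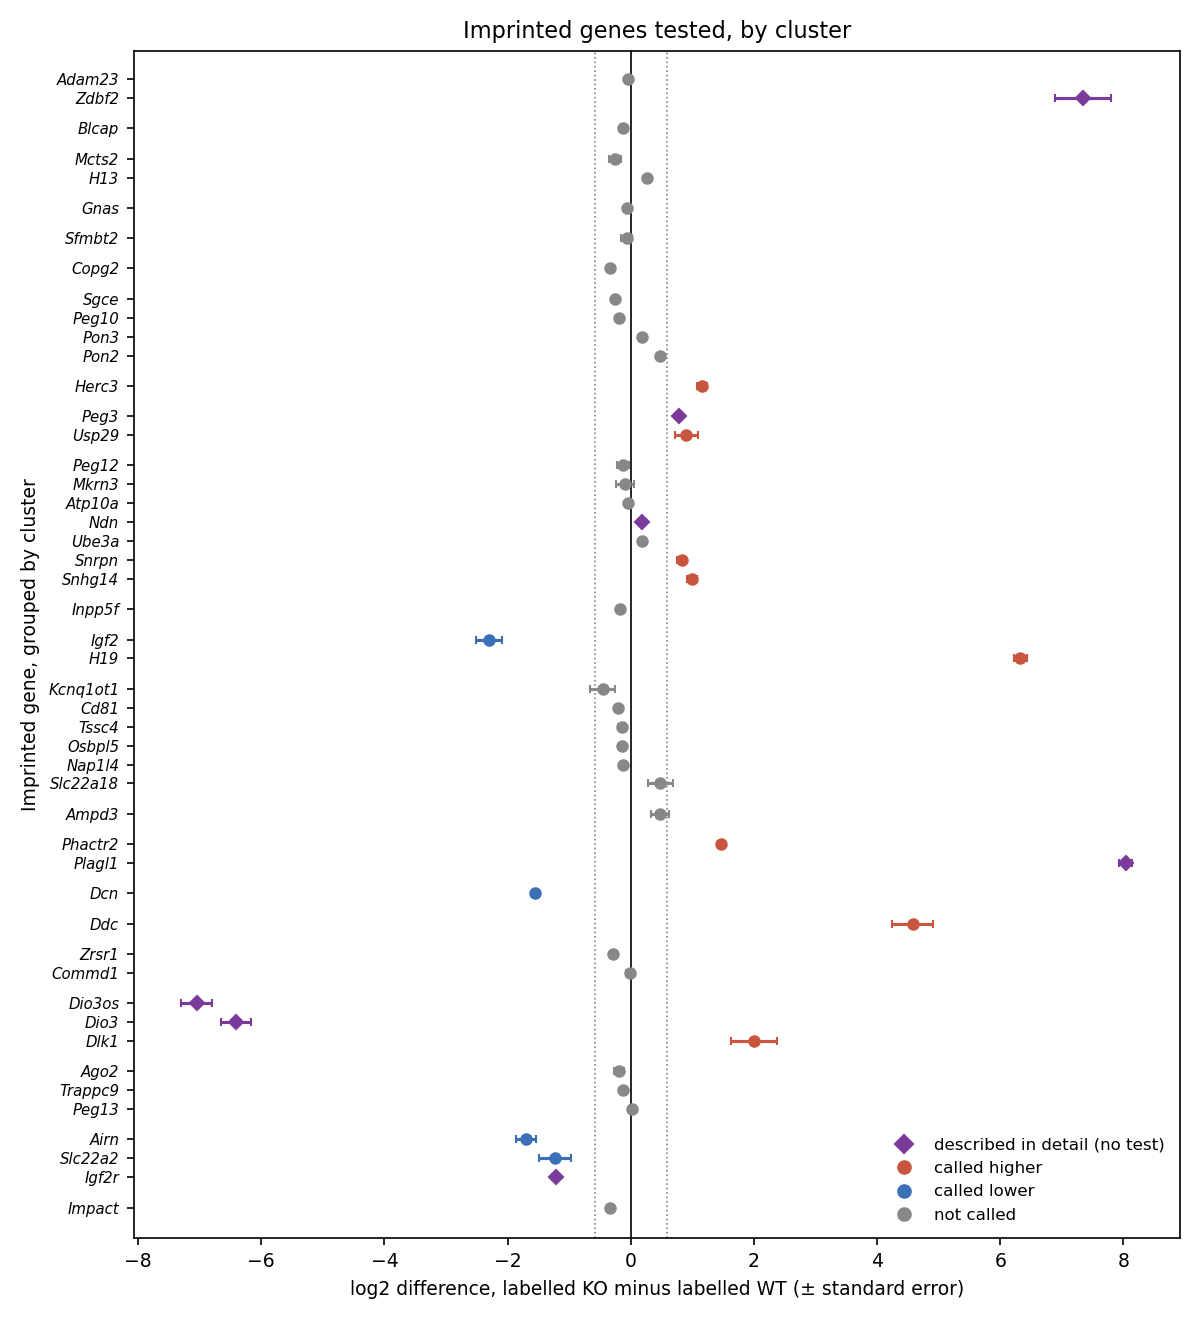
log2 difference (labelled KO minus labelled WT, ± standard error) of each imprinted gene tested, grouped by cluster, with dotted lines at 1.5-fold. The purple diamonds are the 7 genes described above that passed the filter, with no test, and among the circles 8 are called higher (red) and 4 lower (blue), H19 at 6.33 and Igf2 at -2.30 being the farthest out on each side.

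Genes that start within 500 kb of one of the 10 genes were counted next. Of 76 tested, 8 were called higher and 11 lower, or 25.0%, against 17.7% over all genes. Some of the 76 are also on the list of other imprinted genes counted above. Without those, 5 of 61 were called higher and 9 lower, or 23.0%. These loci were fixed by genes chosen on this same contrast. Near Zdbf2, 0 of 7 were called by edgeR, DESeq2 or limma, and their log2 differences ran from -0.50 to 0.05. By edgeR 4 of the 7 had an adjusted as well as an unadjusted p under 0.05, and only the fold limit kept these from a call. Near Plagl1, 2 of 9 were called, Phactr2 and the ribosome factor gene Ltv1 (0.67). Near Dio3, apart from Dio3os at -7.05, the noncoding gene Gm34785 (-0.74) was the 1 gene called of 7, and that call was lost without any 1 of 5 libraries (WT replicates 2 and 3 and all 3 labelled KO) and under DESeq2.

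Near Igf2r, 6 of 13 genes were called lower and 1 higher. Those lower included, besides Airn and Slc22a2, Gm16574 (-1.91, and -2.78 without KO replicate 2), 4732491K20Rik (-1.24) and Map3k4 (-0.65), with Acat3 higher (1.08). Near Grb10, 3 of 13 annotated genes had a row and were tested, and all 3 were called higher. Cobl and Ddc passed the filter on low counts only through the KO-labelled libraries, so a call of lower was not possible for them. Nothing is read from that count. Cobl, an actin nucleator gene, had 0, 1 and 0 counts in the WT-labelled libraries and 112, 166 and 125 in the KO-labelled ones, a ratio of 354 (exact 95% interval 63.2 to 14024). Ddc and the ATPase gene Fignl1 (1.31) went the same way.

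Near Cdkn1c 1 of 15 genes was called, the ion channel gene Trpm5, while Cdkn1c itself stayed between 3 and 13 counts. Trpm5 had 0, 2 and 0 counts in the WT-labelled libraries and 86, 114 and 65 in the KO-labelled ones. It too passed the filter only through the KO-labelled libraries. Near Ndn 3 of 5 genes were lower (A230057D06Rik at -1.42, A330076H08Rik at -1.23 and Gm9801 at -0.77), where Ndn was at 0.18. Near Peg3, Usp29 was the 1 gene called of 8, and near Mest 2210408F21Rik (-0.68) the 1 of 9. The fitted differences of Cobl (8.03) and Trpm5 (6.63) rest on the few reads of the WT group and were 9.99 and 9.38 without WT replicate 2.

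**Figure D5:**
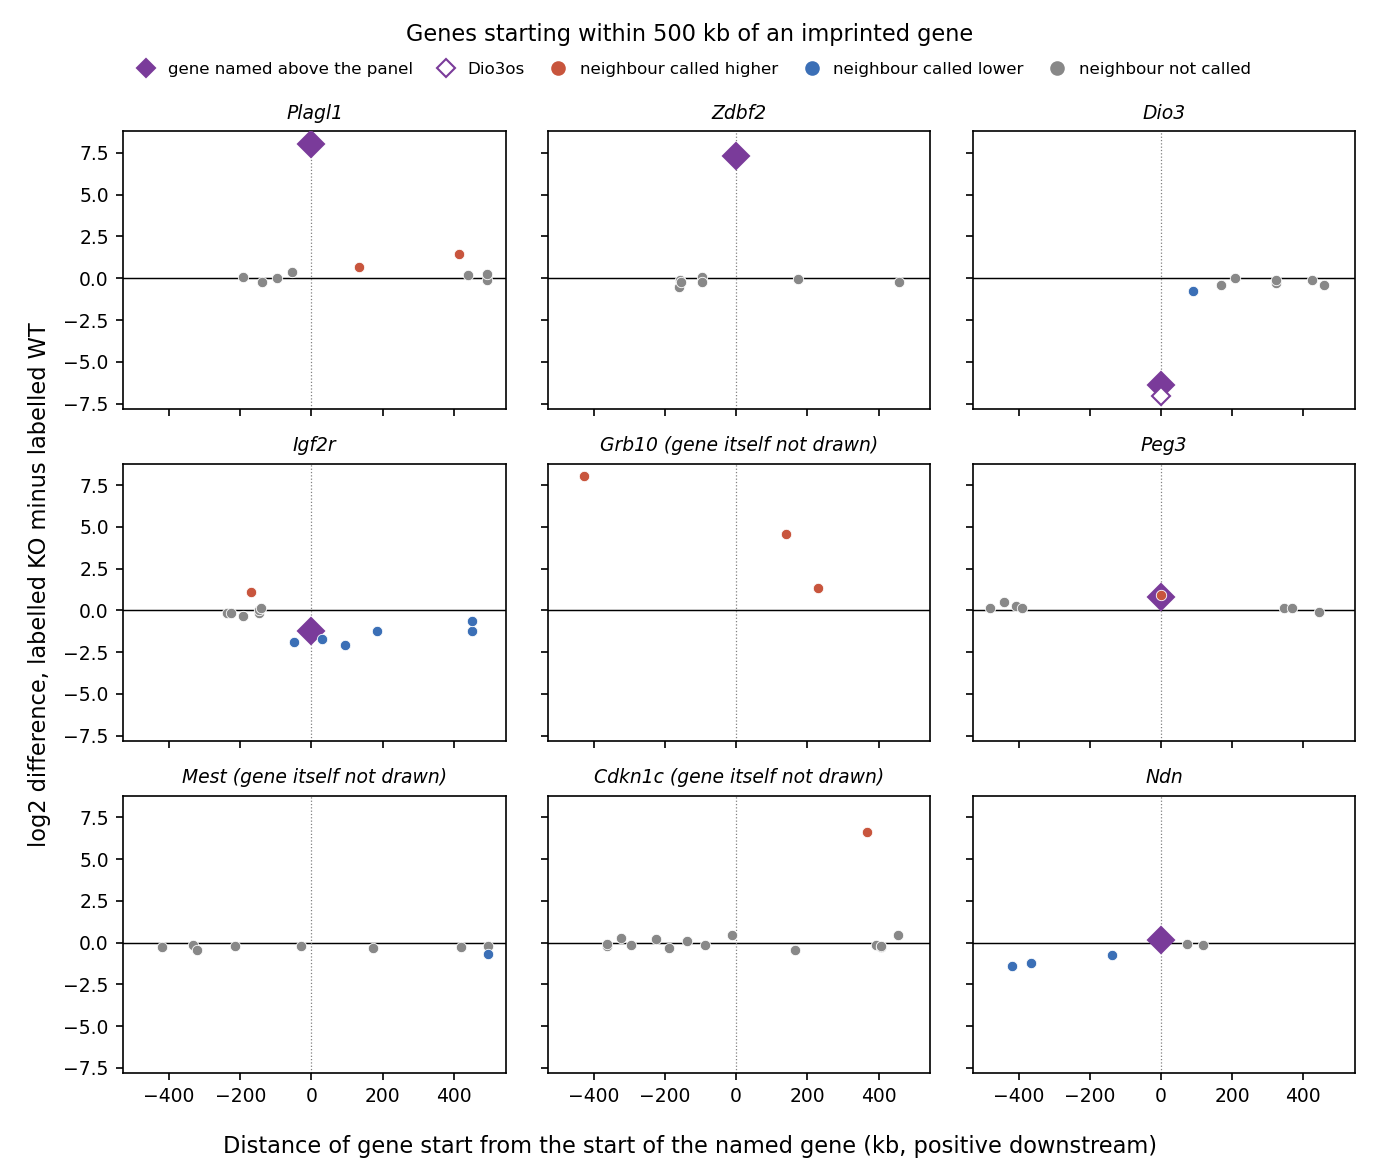
log2 difference (labelled KO minus labelled WT) of genes whose start lies within 500 kb of the start of an imprinted gene, against the distance in kb, positive downstream of that gene. Purple diamonds are the imprinted genes, open for Dio3os and not drawn for Grb10, Mest and Cdkn1c, and circles are red where called higher, blue where called lower and grey otherwise. Around Igf2r 6 of 13 neighbours are called lower and 1 higher, around Ndn 3 of 5 are called lower and around Zdbf2 none of 7 is called. Around Grb10 the 3 tested of 13 annotated genes are called higher, Cobl and Ddc having passed the filter only through the KO group.

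Few genes for the proteins that keep imprints and set or remove DNA methylation passed the fold limit. Of 25 listed, 22 were tested, 3 were called higher and 0 lower (13.6%, against 17.7% over all genes), and 14 had an adjusted p under 0.05 by edgeR. Tet1, an enzyme that oxidizes methylated cytosine, was higher by 1.97 (0.923 and 3.60 CPM), the helicase gene Hells by 0.86 and Uhrf1, which guides DNMT1 to replicated DNA, by 0.66. The call of Uhrf1 was lost without WT replicate 2. Dnmt1 itself was at 73.7 and 104.7 CPM, higher by 0.51. It was under the fold limit and so not called (adjusted p = 3.49e-07 by the edgeR test). Zfp57, which was at 79.4 and 75.2 CPM, differed by -0.08 (adjusted p = 0.0767).

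The deiodinase Dio3 acts on thyroid hormone, and of 14 genes that carry or respond to the hormone 10 were tested, with 2 higher and 1 lower. Slc16a10, a transporter of aromatic amino acids and thyroid hormone, was higher by 0.74, and Hr, a corepressor whose gene the hormone induces, by 0.89. Of the receptors, Thra was at -0.02 and Thrb at -0.48, neither called. The activating deiodinase genes Dio1 and Dio2 were not analysed here.

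For the pathway of Igf2r and Grb10, 13 of 16 listed genes were tested, with 2 higher and 1 lower. Igf2 was lower, as given above. The adaptor Grb14, a paralog of Grb10, was higher by 0.75 and the receptor substrate Irs2 by 0.67. M6pr, the smaller mannose 6-phosphate receptor, was at 0.30, not called, where Igf2r was at -1.22. Igf1 (-0.54), Igf1r (0.27) and Insr (-0.01) were not called either.

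Paralogs of Plagl1 and Cdkn1c did not pass the limits. Plag1 (-0.28) and Plagl2 (-0.12), the zinc finger paralogs of Plagl1, were not called, so 0 of 2 were called by edgeR, DESeq2 or limma, and 0 had an unadjusted p under 0.05. Of 6 other inhibitors of cyclin-dependent kinases 0 were called by edgeR, DESeq2 or limma. By edgeR 5 had an adjusted as well as an unadjusted p under 0.05, and only the fold limit kept these from a call. Cdkn2d (0.53) and Cdkn2c (-0.51) were closest to that limit, and Cdkn1a (-0.29) and Cdkn1b (0.06) were also among the 6. Of the MAGE family 5 were tested and 1 was called, Mageh1, higher by 1.70 from 5, 5 and 7 counts to 20, 30 and 14, while Maged1 was at -0.54 and Magel2 was not analysed here.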

How the data were processed

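RNA of 6 libraries, 3 per group by genotype label, was analysed. The authors deposited raw counts of reads per gene and log2 CPM from limma's voom, for the same genes. The submitters' processing notes name STAR 2.7.2b, featureCounts, limma and GRCm38.p6, and libraries were made from polyadenylated RNA. The strand setting of the counting is not given in the sources used here. The quasi-likelihood F test of edgeR 4.0.16 (R 4.3.3), after TMM scaling and filterByExpr, was applied to the counts, with Benjamini-Hochberg adjustment over 14289 genes. Standard errors come from the log2 difference and its F statistic. Where a group held at most 30 counts of a gene in all, an exact ratio interval (Clopper-Pearson, 95%) on summed counts took the place of a planned bound against a floor of 3 counts. Identifiers matched GENCODE M21 for 14515 genes with and 14822 without the version, and 9 of the 10 genes matched a RefSeq promoter. The 10 genes and all lists were chosen with earlier results of these data known. Named are the 10 genes, the called genes of each list with the largest differences, listed genes of their clusters, paralogs and checks. Thra, Thrb, Igf1, Igf1r, Insr, Zfp57, Dnmt1, Maged1, Cdkn2c, Cdkn2d, Ccl5, Il6 and Il11 were added after their values were seen. So were called genes near the 10 genes beyond the 8 largest differences. The fit was tested on simulated data. Alternatives were other scalings (RLE, upper-quartile, total counts), filters, a prior count, no or another fold limit, limma-voom, DESeq2 1.42.0, limma 3.58.1 on the deposited log2 values, other distances, another length and leaving out each library. Single values of some called genes of the lists are not reported here.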

Additional observations from a re-analysis of the deposited data

How the results depend on the processing

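Of 53 called genes of the lists, loci and checks, 51 kept their call and direction under every scaling, filter, tool and left-out library that tested them, among them all 12 of the other imprinted genes, and the exceptions were Gm34785 and Uhrf1. The fitted log2 difference of Zdbf2 (7.34) was 9.31 without WT replicate 3 and 5.08 with a prior count of 2, which also took Dio3os from -7.05 to -5.98. Without a fold limit, calls rose to 4277 higher and 4114 lower over all genes, 13 and 16 among other imprinted genes, 13 and 34 near the 10 genes, 14 for imprint maintenance, 8 for thyroid hormone, 11 for insulin and IGF, 5 for kinase inhibitors and 5 for the MAGE family. At 2-fold they fell to 1052 higher and 404 lower over all genes, 5 higher among other imprinted genes, 7 lower near the 10 genes, and 1 each for imprint maintenance, thyroid hormone and insulin. With at least 10 counts in every library, 5 were higher near the 10 genes and 0 of the MAGE family were called, since Cobl, Ddc, Trpm5 and Mageh1 were then not tested. With upper-quartile scaling, 1 kinase inhibitor was called, and the cause was not tested. Within 250 kb, 5 were higher and 6 lower, and within 1000 kb 13 and 17. Leaving out each library in turn gave 1634 to 1733 higher and 842 to 933 lower over all genes, 8 to 9 and 4 to 5 among other imprinted genes, and 8 to 9 and 10 to 14 near the 10 genes. Other scalings moved the median of all genes by at most 0.06 (log2). No paired analysis was possible because the labels give wells no number shared between the groups. Depth limits Zdbf2, Cdkn1c and the Dio3 pair, where a group held at most 30 reads in all.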
